A study of Mus musculus with 4 samples.

Results

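Oxidative phosphorylation genes were taken by symbol from the gene counts of 4 RNA-seq libraries of sorted splenic CD4+ T cells, 2 from wild-type (WT) and 2 from *Satb1* conditional knockout (cKO) mice. The symbols were those that open with *Nduf*, *Uqcr*, Atp5 or Cox4 to Cox8 followed by a letter, the 4 *Sdh* genes, and every symbol with the prefix mt-, which marks genes of mitochondrial DNA. They gave 148 of the 55367 symbols in the count tables, 111 in the nuclear genome and 37 in mitochondrial DNA. The nuclear genes were 86 subunit genes of complexes I to V, 8 assembly factor genes of complex I (*Ndufaf*) and 17 pseudogenes. The mitochondrial genes were 13 mRNA, 2 rRNA and 22 tRNA genes. Of these genes, 107 passed the filter on low counts and entered the test, 92 nuclear and 15 mitochondrial.

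All mice were of the C57BL/6 strain, and the cells were peripheral CD4+ T cells that had received no treatment. The cKO mice carried *Satb1* F/F and ThPOK-cre, so that the floxed alleles are recombined in cells that have expressed ThPOK, the factor that sets the CD4 lineage. The label WT gives no further allele. The study's methods describe young adult mice of both sexes, but age, sex and pooling of mice are not labelled per library, so that p-values measure only the spread between these libraries. The comparison asks what differs in CD4+ T cells when the chromatin organiser SATB1 is deleted after commitment to that lineage.

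The respiratory chain passes electrons from NADH through complex I, and from succinate through complex II, to complexes III and IV, and ATP synthase (complex V) uses the proton gradient that complexes I, III and IV build. Complex II is encoded by nuclear genes alone, whereas the other complexes join nuclear subunits to subunits made inside the mitochondrion from polycistronic transcripts of mitochondrial DNA. Naive T cells rely largely on this pathway for ATP, and activated T cells add glycolysis to it.

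Sequences of a few members are shown first, because long stretches of mitochondrial DNA have copies in the nuclear genome and some nuclear subunit genes have processed copies, which bears on which reads can be counted. The first 60 bases of *mt-Co2*, a core subunit of complex IV, at chrM:7013-7072 on the plus strand of mm10, are shown beside the same stretch of its annotated copy *Gm28661*, at chr1:24615506-24615565 on the minus strand. The pair has no differing base. A stretch of *mt-Nd5*, a core membrane subunit of complex I, at chrM:12637-12696, is shown beside its copy *Gm4076* at chr13:85127265-85127324 on the minus strand, with differing bases in capitals. The first bases of *mt-Cytb*, the mitochondrial subunit of complex III, at chrM:14145-14204, had no copy among the other annotated transcripts.
mt-Co2: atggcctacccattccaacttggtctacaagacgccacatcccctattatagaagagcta
Gm28661: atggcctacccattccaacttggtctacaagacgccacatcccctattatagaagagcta
mt-Nd5: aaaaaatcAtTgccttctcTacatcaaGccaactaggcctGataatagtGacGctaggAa
Gm4076: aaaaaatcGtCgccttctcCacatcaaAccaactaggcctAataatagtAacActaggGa
mt-Cytb: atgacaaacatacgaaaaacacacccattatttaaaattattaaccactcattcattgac

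The nuclear pair on which the test turned is *Ndufs5*, an accessory subunit of complex I (chr4:123712710-123718202, minus strand), and *Ndufs5-ps*, a processed copy that RefSeq places at chr16:42955580-42956079. The first 120 coding bases of *Ndufs5* and the matching bases of the copy, at chr16:42955631-42955750 on the plus strand, are shown with the differing bases in capitals. Counted from 1 at the A of the start codon, the differences were T81C and A105G, with the base of *Ndufs5* first. Over the 319 aligned bases the pair was identical at 317 (99.37%).
Ndufs5: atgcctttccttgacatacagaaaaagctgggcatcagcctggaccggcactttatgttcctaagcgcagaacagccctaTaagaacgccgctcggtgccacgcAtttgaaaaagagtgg
Ndufs5-ps: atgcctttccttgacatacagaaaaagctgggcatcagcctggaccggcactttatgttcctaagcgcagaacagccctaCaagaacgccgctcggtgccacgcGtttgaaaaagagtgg

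The libraries held between 4495902 and 6555699 gene counts, and 59.37 to 64.51% of uniquely aligned reads fell outside annotated features. Over all genes, the edgeR quasi-likelihood test called 533 of 12403 (4.30%) at an adjusted p under 0.05, 291 higher in cKO (2.35%) and 242 lower (1.95%). The gene-level count of *Satb1* was 5677 and 4390 in WT and 4958 and 3986 in cKO, so it did not check the labels (log2 fold change -0.05, interval -0.32 to 0.23). *Foxp3*, the gene of the regulatory T cell factor, was called higher in cKO (log2 fold change 1.86, SE 0.16, n = 2 per genotype). *Xist* had 5447 and 4235 counts in WT and 9 and 6 in cKO, and the Y-linked *Ddx3y* had 0 and 0 in WT and 525 and 597 in cKO, so that the sex of the mice and the genotype cannot be told apart.

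Nuclear subunit transcripts of complexes I, III, IV and V lay slightly lower in both cKO libraries than in both WT libraries when summed, while complex II overlapped. No nuclear subunit gene was called by edgeR or DESeq2, and 17 of 78 (21.8%) had an unadjusted edgeR p under 0.05 in either direction, near the 19.1% of all tested genes. CPM (a gene's count scaled to a library of 1000000 gene counts) summed over the 111 nuclear genes were 6554 and 6276 for WT and 6010 and 5430 for cKO. The groups did not overlap, and cKO 2 was the lowest library. The mean was 6415 ± 196.8 CPM (SD, n = 2) in WT and 5720 ± 410.3 CPM in cKO, a ratio of 0.892. The median log2 fold change of the 92 tested nuclear genes was -0.18, a decrease of 11.5% on the linear scale, beside a median of -0.0015 over all tested genes. Of the 92, 78 (84.8%) had a fold change below 0, against 50.2% of all tested genes, and 47 (51.1%) had both cKO libraries below both WT libraries, against 25.5% of all. Only 2 had both cKO libraries above both WT libraries, against 24.7% of all. An unadjusted edgeR p under 0.05 was found for 17 of the 92 in the lower direction (18.5%), against 9.39% of all tested genes, and for 1 in the higher direction, against 9.72% of all. In DESeq2 only 2 of the 92 had an unadjusted p under 0.05 in either direction, where 3.43% of all tested genes passed even after adjustment. In bulk RNA, less transcript per cell cannot be told apart from a smaller share of the cells that express it.

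The 2 cKO libraries did not sit equally far from WT. Of the 78 tested nuclear subunit genes, cKO 2 was the lowest of the 4 libraries for 61 (78.2%), while it was the lowest for 28.7% of all tested genes. cKO 1 was the lowest for 10, WT 2 for 5 and WT 1 for 2. The share of uniquely aligned reads outside annotated features was also highest in cKO 2, at 64.51%, against 60.83% in WT 1, 62.09% in WT 2 and 59.37% in cKO 1, and its part in the result was not tested. The median log2 ratio of these genes to the WT mean was -0.27 in cKO 2 and -0.11 in cKO 1, where all tested genes had medians of -0.00 and -0.01. Without cKO 2, 62 of the 92 nuclear genes (67.4%) lay below 0 and the median was -0.11. Without cKO 1, 82 lay below 0 and the median was -0.26.

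**Figure D1:**
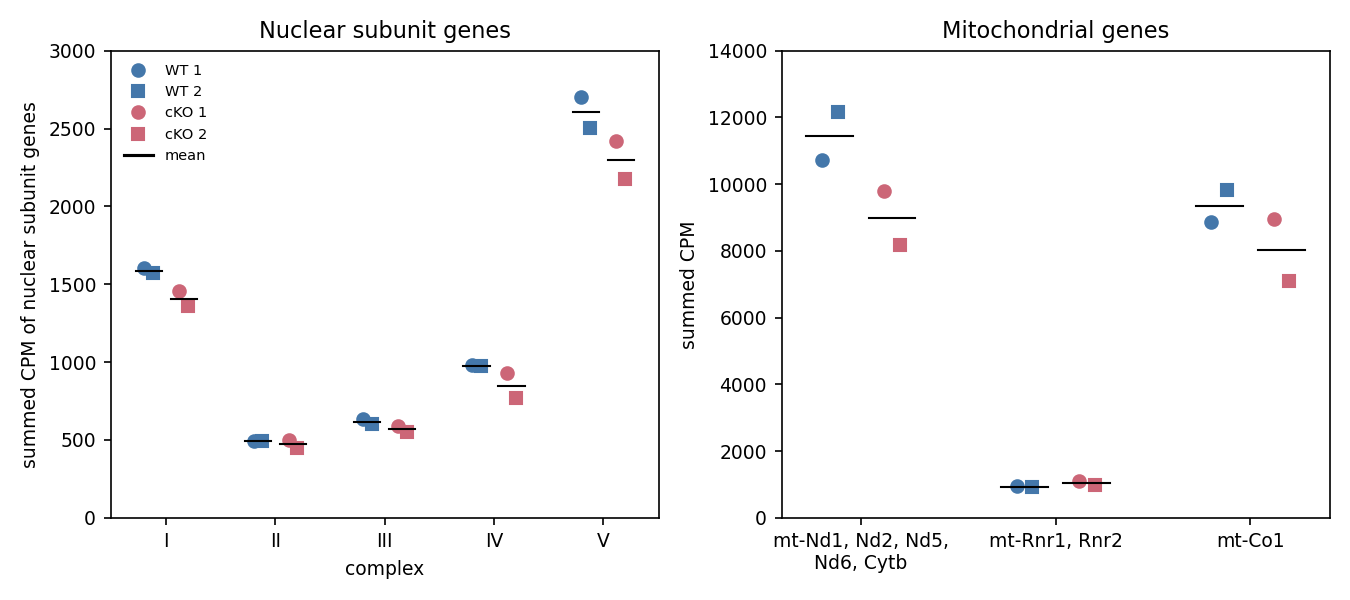
Summed CPM (linear axis from 0) of the nuclear subunit genes of complexes I to V (left) and of mitochondrial genes (right), with 1 point per library and a line at the mean of each genotype. Complexes I, III, IV and V and the sum of 5 mitochondrial mRNAs lie lower in both cKO libraries than in either WT library, the rRNAs lie higher, and complex II and *mt-Co1* overlap.

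Complex I, the NADH dehydrogenase, had the most members. All 37 nuclear subunit genes were tested, 32 lay below 0 and 20 (54.1%, against 25.5% of all tested genes) had both cKO libraries below both WT libraries, with a median log2 fold change of -0.16. Their summed CPM was 1603 and 1573 in WT and 1455 and 1362 in cKO, a ratio of 0.887. The medians of the parts of the enzyme were close to each other: -0.20 for 8 genes of the N module, which oxidises NADH, -0.14 for 8 genes of the Q module, which reduces ubiquinone, and -0.16 for the other 21, mostly of the membrane arm.
*Ndufa10*, an accessory subunit of the membrane arm, had 98.69 and 101.0 CPM in WT and 81.53 and 77.13 CPM in cKO, with no overlap (log2 fold change -0.33, SE 0.11, edgeR adjusted p 0.1369). The core subunit *Ndufs1*, the largest iron-sulfur protein of the N module, had 85.42 and 95.20 CPM in WT and 70.73 and 76.92 CPM in cKO, with no overlap (log2 fold change -0.29, SE 0.11, edgeR adjusted p 0.2046). It overlaps exons of genes on the opposite strand, which counting without strand cannot separate. Among the subunit genes of the complex, the largest difference downward was that of *Ndufb1-ps*, which GENCODE M21 lists as a noncoding RNA and which was counted here with the subunit genes, with 64 and 51 counts in WT and 35 and 31 in cKO (log2 fold change -0.67, SE 0.25, edgeR adjusted p 0.1982). It shares 147 exonic bases with *Cpsf2* on the opposite strand.

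The X-linked members are given apart because sex and genotype coincided. *Cox7b* of complex IV had 80.54 and 76.96 CPM in WT and 64.40 and 59.63 CPM in cKO (log2 fold change -0.35, SE 0.12, edgeR adjusted p 0.147). *Ndufa1* of complex I had 36.30 and 31.36 CPM in WT and 28.11 and 24.63 CPM in cKO (log2 fold change -0.36, SE 0.16, edgeR adjusted p 0.254). *Ndufb11* of complex I had 68.64 and 71.18 CPM in WT and 70.55 and 60.71 CPM in cKO, which overlap. In a fit without genes of the sex chromosomes, 75 of the 89 remaining nuclear genes (84.3%) lay below 0.

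*Ndufs5-ps* was the one member called, 1 of 92 nuclear genes (1.09%) against 4.30% of all tested genes, and its parent *Ndufs5* lay in the opposite direction. The counts assigned to *Ndufs5-ps* were 16 and 12 in WT and 2 and 2 in cKO (log2 fold change -2.60, SE 0.56, interval -3.88 to -1.31, edgeR adjusted p 0.03936). It passed the filter on low counts only through the WT libraries, so that a difference was a condition of its being tested. The call was lost in each fit that left out 1 library (edgeR adjusted p from 0.06977 to 0.3058) and in DESeq2 (adjusted p 0.2768).
*Ndufs5* itself had 52 and 33 counts in WT and 65 and 59 in cKO. Its CPM of 7.932 and 7.340 in WT lay below the 12.10 and 12.75 in cKO, with a log2 fold change of 0.69 (SE 0.23, edgeR adjusted p 0.1439), the largest difference upward among the nuclear members. The summed CPM of the gene and its copy was 10.37 and 10.01 in WT and 12.47 and 13.18 in cKO. The pair shares almost all its bases, as printed above, so that within the aligned stretch a read of 50 bases can be assigned to one of them only where it covers a differing base.

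**Figure D2:**
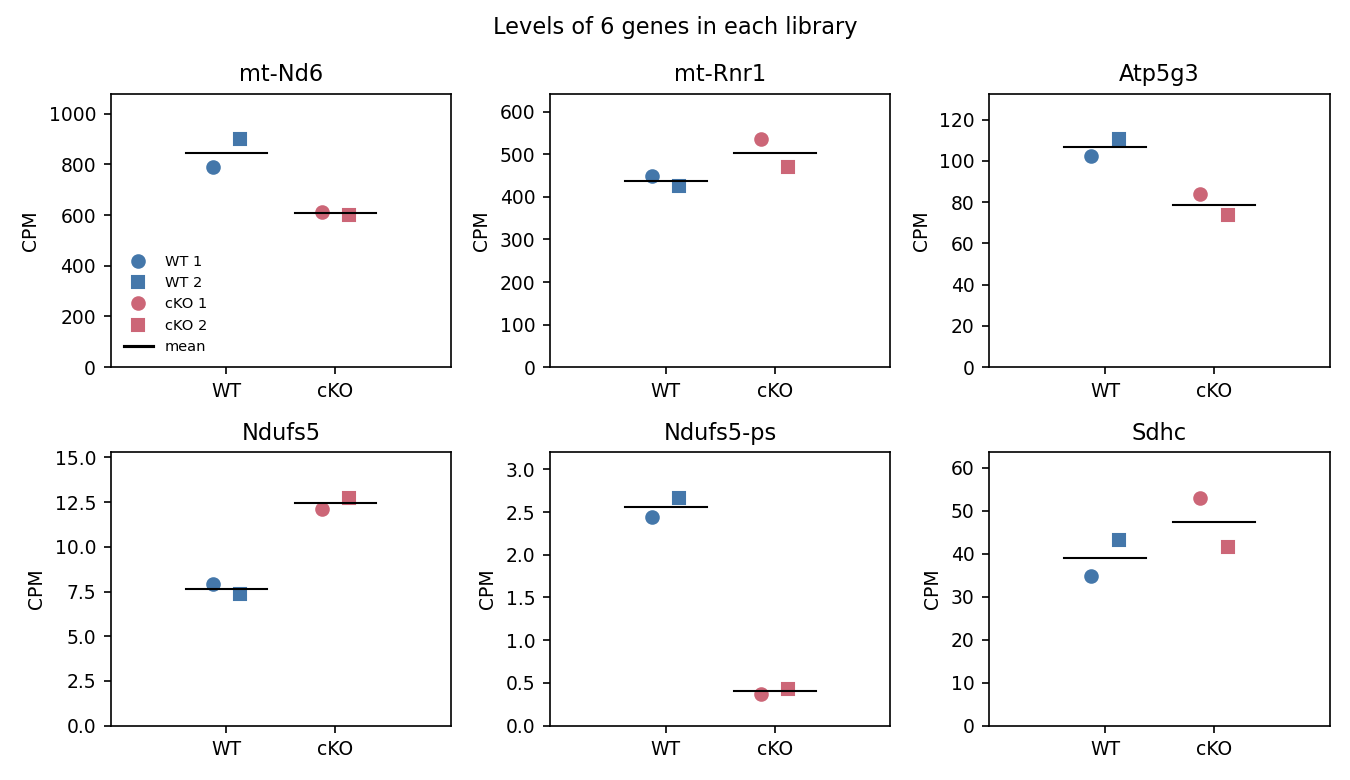
CPM of 6 genes in each library (linear axes from 0, each with its own scale), with lines at the genotype means. The cKO values of *mt-Nd6*, *Atp5g3* and *Ndufs5-ps* lie below both WT values, those of *mt-Rnr1* and *Ndufs5* lie above, and those of *Sdhc* overlap WT.

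Complex II, succinate dehydrogenase, had the ratio nearest to 1 among the 5 nuclear sums, a sum made up mostly of *Sdha*. Of its 4 genes 3 lay below 0, with a median log2 fold change of -0.12. In 2 of them (50%, against 25.5% of all tested genes) both cKO libraries lay below both WT libraries. Its summed CPM was 492.9 and 494.2 in WT and 497.9 and 450.9 in cKO, a ratio of 0.961 with overlapping groups, and without cKO 2 the ratio was 1.01. *Sdha*, the flavoprotein that oxidises succinate, was level at 311.9 and 306.3 CPM in WT and 324.6 and 286.5 CPM in cKO (log2 fold change -0.02, interval -0.26 to 0.23). *Sdhb*, the iron-sulfur subunit, had 84.66 and 90.97 CPM in WT and 75.57 and 74.11 CPM in cKO (log2 fold change -0.23, SE 0.11, edgeR adjusted p 0.3024).
The membrane anchors differed from each other. *Sdhd* had 61.47 and 53.83 CPM in WT and 44.67 and 48.83 CPM in cKO, with no overlap (log2 fold change -0.31, SE 0.13, edgeR adjusted p 0.2228). *Sdhc* had 34.78 and 43.15 CPM in WT and 53.05 and 41.48 CPM in cKO, with overlap (log2 fold change 0.29, SE 0.18, edgeR adjusted p 0.4169). Without cKO 2, *Sdhc* passed the threshold in the upward direction (log2 fold change 0.49, edgeR adjusted p 0.0235).

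Complex III, the cytochrome bc1 complex, had 8 nuclear genes, 6 of them below 0, and a summed CPM of 634.3 and 601.2 in WT and 590.8 and 550.5 in cKO. *Uqcrfs1*, the Rieske iron-sulfur protein, had 58.88 and 61.17 CPM in WT and 48.40 and 47.96 CPM in cKO (log2 fold change -0.32, SE 0.12, edgeR adjusted p 0.1842). *Uqcr10*, a small structural subunit, had a log2 fold change of -0.35 (SE 0.15, edgeR adjusted p 0.2457), and *Uqcrq*, another small subunit, one of -0.26 (SE 0.15). The core protein genes *Uqcrc1* and *Uqcrc2* had log2 fold changes of 0.01 and -0.12. *Uqcrh*, the hinge subunit, had one of -0.09.

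Complex IV, cytochrome c oxidase, had 12 tested nuclear genes, 11 of them below 0. Its summed CPM was 979.8 and 976.0 in WT and 930.5 and 768.3 in cKO, so that the WT libraries were nearly equal and cKO 2 stood apart from cKO 1. *Cox6b1*, which joins the monomers of the enzyme, had 83.13 and 94.31 CPM in WT and 77.06 and 64.38 CPM in cKO (log2 fold change -0.32, SE 0.14, edgeR adjusted p 0.2478). *Cox4i1*, the largest nuclear subunit, had 226.1 and 203.3 CPM in WT and 228.9 and 175.2 CPM in cKO, which overlap (log2 fold change -0.09, SE 0.14). *Cox7a2l*, a factor that joins complexes III and IV into a supercomplex, had a log2 fold change of -0.27 (SE 0.17), and its paralogue *Cox7a2* one of -0.03 (SE 0.16). *Ndufa4*, once assigned to complex I and now counted to complex IV, had one of -0.20 (SE 0.12), and *Cox6a1* one of -0.25 (SE 0.13). The pseudogene *Cox5b-ps* had one of -0.38 (SE 0.32).
The isoforms known from muscle, testis or other tissues were at or near the floor and were not tested. *Cox4i2*, *Cox7b2* and *Cox8c* had no count in any library, which allows up to 3 counts or 0.4576 to 0.6673 CPM in a library. *Ndufa4l2* had 1 count in WT 1 and none elsewhere, and *Cox6a2*, *Cox8b*, *Cox7a1* and *Cox6b2* had at most 2, 1, 7 and 6 counts in a library.

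Complex V, ATP synthase, had 17 nuclear genes, 15 of them below 0, and the highest summed level, 2704 and 2505 CPM in WT and 2420 and 2175 CPM in cKO, a ratio of 0.882. The median log2 fold change was -0.19 for the 5 genes of the catalytic F1 head and -0.20 for the 12 genes of the membrane part and stalk. Within F1, *Atp5b*, the catalytic subunit, had 742.3 and 681.1 CPM in WT and 632.1 and 603.0 CPM in cKO (log2 fold change -0.21, SE 0.11, edgeR adjusted p 0.3538). *Atp5a1*, the alpha subunit, overlapped between the genotypes (log2 fold change -0.14, SE 0.12), and *Atp5c1*, the central stalk, had a log2 fold change of -0.19 (SE 0.11).
The c-ring genes were compared side by side, since *Atp5g1*, *Atp5g2* and *Atp5g3* encode the same mature protein. Of their stretches of 50 bases, the read length, 11.1%, 38.35% and 0% also occur in other annotated transcripts. Their levels are therefore not fully comparable. *Atp5g3*, with the highest counted level, had 102.5 and 110.5 CPM in WT and 83.95 and 73.67 CPM in cKO, with no overlap (log2 fold change -0.43, SE 0.12, edgeR adjusted p 0.09046). *Atp5g1* and *Atp5g2* had log2 fold changes of -0.33 (SE 0.16) and -0.28 (SE 0.15), also with no overlap of groups. *Atp5k*, subunit e of the membrane part, had the largest difference of the complex, 32.80 and 34.03 CPM in WT and 26.80 and 19.01 CPM in cKO (log2 fold change -0.53, SE 0.19, edgeR adjusted p 0.1692). *Atp5mpl*, another small membrane subunit, had a log2 fold change of -0.45 (SE 0.21).

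**Figure D3:**
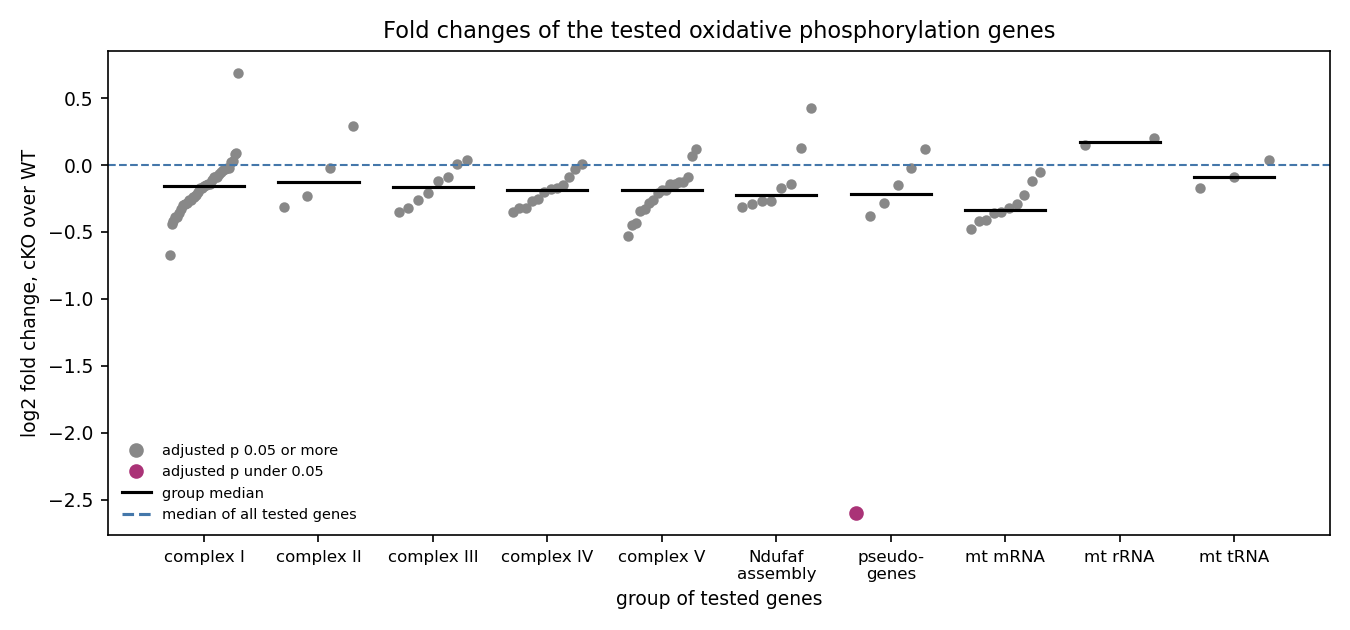
Log2 fold change (cKO over WT) of each of the 107 tested genes, sorted within its group, with the group median as a solid line and the median of all tested genes as a dashed line. The medians of complexes I to V lie between -0.12 and -0.19, that of mitochondrial mRNA lies at -0.34 and that of rRNA at 0.18, and *Ndufs5-ps* at -2.60 is the single called point.

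Mitochondrial mRNA counts lay lower in both cKO libraries than in both WT libraries, and mitochondrial rRNA lay on the other side. The 13 mRNA genes summed to 20450 and 23060 CPM in WT and 19590 and 15920 CPM in cKO, or 21750 ± 1842 CPM against 17760 ± 2593 CPM (SD, n = 2), a ratio of 0.816. The 10 that were tested all had a log2 fold change below 0, against 50.2% of all tested genes, and 7 of them (70%) had both cKO libraries below both WT libraries, against 25.5% of all, with a median of -0.34. These mRNAs are cut from shared precursors, so that they are not independent of each other. Without cKO 2 the median was -0.17 and without cKO 1 it was -0.52. None of the 15 tested mitochondrial genes was called by edgeR, which called 4.30% of all tested genes, 2 (13.3%) had an unadjusted p under 0.05, against 19.1% of all tested genes, and DESeq2 called 1, where it called 3.43% of all tested genes.

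The count tables resolved only part of the 13 mRNAs. A word check asked which share of the 50-base words of each gene, the length of the reads, also occurs in another annotated transcript. All words of *mt-Co2*, 99.86% of those of *mt-Co3*, 99.53% of *mt-Atp6*, 98.79% of *mt-Nd4l* and 97.99% of *mt-Nd3* occurred elsewhere. These 5 genes had between 0 and 32 counts in a library. *mt-Co1* and *mt-Nd4*, with 51.14% and 62.23% of words shared, had 32793 to 58124 and 3068 to 5609 counts, and *mt-Nd5*, *mt-Nd2*, *mt-Cytb*, *mt-Nd1* and *mt-Nd6*, with at most 8.19%, had at least 2786 counts. Some nuclear subunit genes share words too, such as *Atp5l* (84.85%), *Atp5o* (45.62%) and *Uqcrb* (43.42%), so that their counted levels may be incomplete.
The copies on chromosome 1 were identical to the gene over all aligned bases for *mt-Co2* (681), *mt-Atp6* (678), *mt-Co3* (783), *mt-Nd4l* (294) and *mt-Nd4* (876), and that of *mt-Nd3* had 1 differing base. These copies lie on the minus strand between 24611535 and 24615565. The copy of *mt-Nd5* shown above was 95.28% identical over 953 aligned bases and had 1 to 7 counts, against 6399 to 12903 for the gene. *mt-Atp8* had no shared word and yet 7 to 12 counts, and sequence between the annotated copies was not checked. Between 1771260 and 2765265 reads per library were listed as not uniquely aligned, outside the gene counts.

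**Figure D4:**
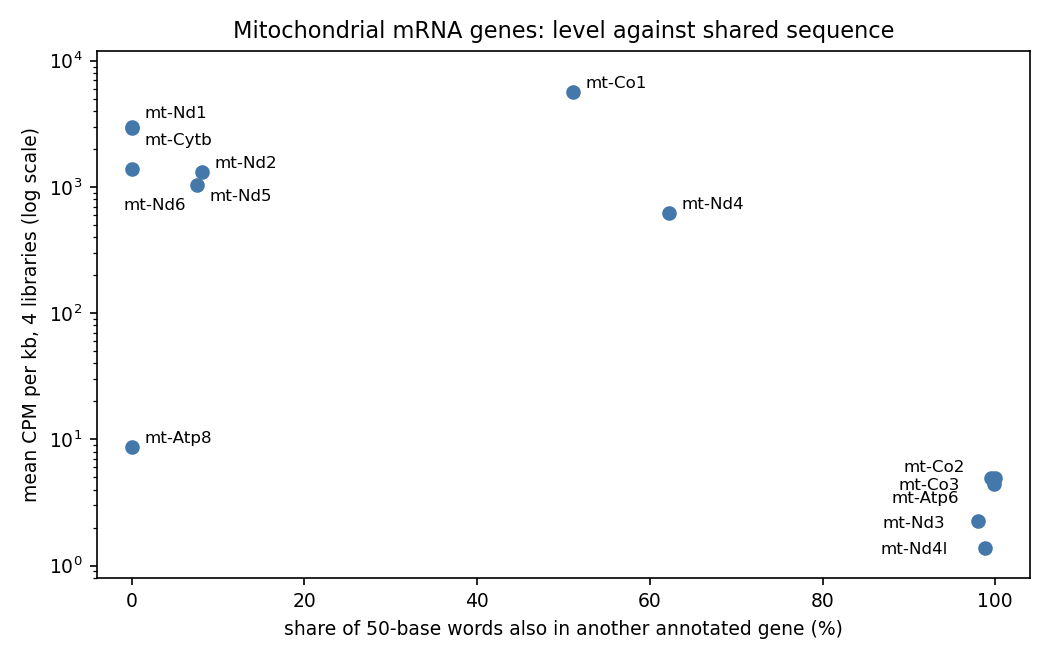
Mean CPM per kb over the 4 libraries (log axis) of the 13 mitochondrial mRNA genes against the share of their 50-base words found in another annotated transcript. The 5 genes above 90% lie under 5 CPM per kb and the 5 others with fewer than 10% shared words and over 1000 CPM per kb lie at the upper left, with *mt-Atp8* as the exception at 8.668.

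On the 5 mRNAs with fewer than 10% of words shared and a resolved count, the sum was 10720 and 12170 CPM in WT and 9782 and 8164 CPM in cKO, a ratio of 0.784, and all 5 had both cKO libraries below both WT libraries, an order found for 25.5% of all tested genes. *mt-Nd6*, the one mRNA on the light strand, had 790.2 and 899.5 CPM in WT and 611.8 and 601.9 CPM in cKO, with the smallest SE of the 5 (log2 fold change -0.48, SE 0.11, edgeR adjusted p 0.05523, DESeq2 adjusted p 0.009808). *mt-Nd6* shares 14 bases with *mt-Nd5* on the other strand, and the strand setting of the counting is not given in the sources used here.
*mt-Nd5* had 1968 and 2375 CPM in WT and 1870 and 1383 CPM in cKO (log2 fold change -0.41, SE 0.18, edgeR adjusted p 0.2608). *mt-Nd1* had 3198 and 3266 CPM in WT and 2790 and 2235 CPM in cKO (log2 fold change -0.36, SE 0.16, edgeR adjusted p 0.2664). *mt-Nd2* and *mt-Cytb* had log2 fold changes of -0.32 (SE 0.15) and -0.29 (SE 0.16). In these 4 genes cKO 1 lay closer to the lower WT library than to cKO 2, whereas for *mt-Nd6* the cKO values lay close together.
Of the genes that share more words, *mt-Nd4* had a log2 fold change of -0.35 (SE 0.16). *mt-Co1*, the catalytic subunit of complex IV and the most abundant member, had 8866 and 9814 CPM in WT and 8956 and 7085 CPM in cKO, with overlap (log2 fold change -0.22, SE 0.20). The 3 tested genes with over 90% shared words had 7 to 32 counts in a library and log2 fold changes of -0.42 for *mt-Co2*, -0.12 for *mt-Co3* and -0.05 for *mt-Atp6*, each with an SE of at least 0.38. *mt-Atp6*, like *Ndufs5-ps*, passed the filter on low counts only through the WT libraries.

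The rRNAs of the mitochondrial ribosome were higher in both cKO libraries than in both WT libraries, without passing the test. *mt-Rnr1*, the 12S rRNA, had 449.8 and 424.8 CPM in WT and 535.7 and 469.7 CPM in cKO (log2 fold change 0.20, SE 0.11, edgeR adjusted p 0.3912). *mt-Rnr2*, the 16S rRNA, had 503.8 and 489.1 CPM in WT and 577.8 and 525.0 CPM in cKO (log2 fold change 0.15, SE 0.11, edgeR adjusted p 0.5078). The ratio of rRNA to mRNA counts was 0.04663 and 0.03964 in WT and 0.05684 and 0.06247 in cKO, which do not overlap (0.04313 ± 0.004943 against 0.05966 ± 0.003984, SD, n = 2). An exact two-sided permutation test of 2 against 2 libraries cannot reach a p of 0.05. The study's methods describe libraries from purified mRNA. How much rRNA each library carried past that step was not tested. The ratio to the 5 resolved mRNAs was 0.0890 and 0.0751 in WT and 0.1138 and 0.1218 in cKO. The tRNA genes summed to between 11.23 and 20.10 CPM, and 10 of the 22 had no count in any library. *mt-Te*, the tRNA of glutamate, had 21 and 14 counts in WT and 14 and 14 in cKO, and *mt-Tl1*, a tRNA of leucine, had 46 and 19 in WT and 44 and 16 in cKO.

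The ratio of nuclear to mitochondrial mRNA overlapped between the genotypes when all 13 mitochondrial mRNAs were summed, and did not overlap over the 5 resolved ones. The nuclear genes summed to 0.3204 and 0.2722 of the mitochondrial mRNA counts in WT and to 0.3068 and 0.3410 in cKO (0.2963 ± 0.03413 against 0.3239 ± 0.0242, SD, n = 2). The nuclear subunit genes summed to 0.5985 and 0.5054 of the 5 resolved mRNAs in WT and to 0.6025 and 0.650 in cKO, where cKO 1 lay just above WT 1. Within complex I, the ratio of the nuclear subunits to the *mt-Nd* genes was 0.1953 and 0.1702 in WT and 0.1958 and 0.2274 in cKO, which do not overlap, though cKO 1 lay beside WT 1. The mitochondrial parts of the complexes had ratios of cKO to WT of 0.769 for complex I, 0.819 for III, 0.859 for IV and 0.955 for V, the last from genes with few counts and from 0.702 to 1.21 with 1 library left out.

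Levels per kb, taken over the median length of a gene's annotated transcripts, showed how unequal the members were. This length can differ from that of the transcript that is expressed. *mt-Co1* had a mean of 5618 CPM per kb over the 4 libraries, *mt-Nd1* 3001 and *mt-Cytb* 2925, while the highest nuclear members were *Atp5b* at 346.9, *Uqcrh* at 293.1, *Cox4i1* at 279.7 and *Atp5a1* at 273.6 CPM per kb. The complex II genes ranged from 42.40 CPM per kb for *Sdhd* to 169.7 for *Sdha*. The complex I assembly factors lay between 3.649 CPM per kb for *Ndufaf6* and 13.78 for *Ndufaf3*. Their 8 genes had log2 fold changes between -0.31 and 0.43, 6 of them below 0. Of the 17 pseudogenes 6 were tested, 5 of them below 0, 3 had no count in any library, and together they summed to between 33.49 and 39.20 CPM.

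Transcript length was checked because most nuclear members have short annotated transcripts. The length is the median over a gene's annotated transcripts, the protein-coding ones where it has any. It can differ from the length of the transcript that is expressed. Among the 3082 shortest of all tested genes, up to 1055 bases, the median log2 fold change was -0.05 and 29.7% had both cKO libraries below both WT libraries, against 0.06 and 20.5% in the 3079 longest. The shortest genes held 63 of the 78 nuclear subunit genes, of which 32 had both cKO libraries below both WT libraries, with a median of -0.16. The 3076 next in length held 12, of which 10 did so, with a median of -0.24, beside -0.03 and 27.7% for all genes of that length.

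Promoters were read because most of the tested nuclear subunit genes, 67 of 78, lay below 0. RefSeq promoters (GRCm38.p6, 250 bases before to 50 after the start) were found for 66 of the 78 tested nuclear subunit genes and searched on both strands for the site of NRF1, an activator of respiratory genes (GCGC, then any base, then TGCGC), for CCGGAAG, a site of ETS factors such as GABPA, and for AAGATGGC, a site of YY1. The NRF1 letters were in 17 (25.8%), against 12.4% of all tested genes with a promoter and 5.19% of all genes with a promoter. The ETS letters were in 17 (25.8%), against 22.2% and 9.93%, and the YY1 letters in 10 (15.2%), against 5.80% and 3.19%. Of the tested protein genes of the mitochondrial ribosome, 68 had a promoter, with shares of 19.1% (NRF1), 36.8% (ETS) and 17.6% (YY1). Any of the 3 was found in 57.6% of the subunit genes and 61.8% of those of the mitochondrial ribosome. By complex this share was 51.5% in I, 100% in II (3 genes), 60% in III, 30% in IV and 80% in V. Windows of 60 bases are shown for a gene below WT (*Sdhd*, chr9:50603894-50603953), a level gene (*Sdha*, chr13:74350304-74350363) and a gene with both cKO libraries above both WT libraries (*Ndufs5*, chr4:123718250-123718309), all on the minus strand, with the NRF1 match in capitals.
Sdhd: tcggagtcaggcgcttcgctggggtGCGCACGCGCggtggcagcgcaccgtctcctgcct
Sdha: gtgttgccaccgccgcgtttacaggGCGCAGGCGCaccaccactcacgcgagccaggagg
Ndufs5: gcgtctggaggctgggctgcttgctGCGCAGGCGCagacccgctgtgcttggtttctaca

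In 4 other mitochondrial gene lists the median lay below 0 by less than in the nuclear members, and in a list of regulators it lay near 0. Genes below 0 were 81.8% of import, 70.5% of ribosome, 69.6% of assembly and 65.5% of mitochondrial DNA expression genes, beside 84.8% of the nuclear members and 50.2% of all tested genes. None of their genes was called by edgeR or DESeq2. An unadjusted edgeR p under 0.05 was found for 9 genes of the ribosome list (11.5%), 2 of import (9.09%), 5 of assembly (10.9%), 3 of mitochondrial DNA expression (10.3%) and 1 of regulators (7.69%), all below the 19.1% of all tested genes in either direction. All 9 of the ribosome list were lower in cKO (11.5%), against 9.39% of all tested genes in that direction. Of 78 tested genes of the mitochondrial ribosome (*Mrpl* and *Mrps*), 33 (42.3%, against 25.5% of all tested genes) had both cKO libraries below both WT libraries and the median log2 fold change was -0.09. The largest differences there were *Mrps22* at -0.70 (SE 0.20, edgeR adjusted p 0.09756) and *Mrps16* at -0.63 (SE 0.19). Import genes (22 tested) had a median of -0.12, with *Timm9* at -0.62 and *Tomm40* at -0.41. Assembly factors and the electron carrier outside the symbol rule (46 tested) had a median of -0.13, with the iron-sulfur assembly factor *Nubpl* at -1.37 from 22 and 13 counts in WT and 6 and 6 in cKO, which passed the low-count filter only through WT, and *Cox10*, which makes the heme of complex IV, at -0.60 (SE 0.21). Genes that copy, transcribe and process mitochondrial DNA (29 tested, 41.4% with both cKO libraries below both WT libraries) had a median of -0.07, with *Fastkd2* at -0.54 and *Mterf1a* at -0.49. The 13 tested regulators of respiratory genes had a median of 0.01, with *Yy1* at 0.19 and *Myc* at -0.46 (SE 0.15, edgeR adjusted p 0.1355), where *Myc* had 1280 and 781 counts in WT and 820 and 534 in cKO.

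Several markers of other cells and states moved with the genotype, and their part in these results was not tested. Of all tested genes, edgeR called 2.35% higher in cKO and 1.95% lower. The 6 T cell markers summed to between 5381 and 5815 CPM, and 1 of them, *Thy1*, was called lower in cKO (log2 fold change -0.62, SE 0.11). Of the CD8 markers, *Cd8b1* was called lower (log2 fold change -0.91, SE 0.17) and *Cd8a* overlapped between the genotypes (log2 fold change -0.07, SE 0.34). Of 7 B cell markers 4 were tested and 1 (*Pax5*, which passed the low-count filter only through cKO) was called higher in cKO, with sums of 15.86 and 19.13 CPM in WT and 75.94 and 31.33 CPM in cKO. Of 9 myeloid markers 8 were tested and 4 were called higher, of which *S100a9* and *Ltf* passed the low-count filter only through cKO. Below 0 lay *Itgam* (log2 fold change -0.85, SE 0.47, no overlap) and *Cd68* (log2 fold change -0.29, SE 0.36, with overlap). The myeloid sums were 33.71 and 40.48 CPM in WT and 106.5 and 65.03 CPM in cKO. The 4 markers of proliferating cells summed to 288.0 and 310.9 CPM in WT and 59.19 and 169.6 CPM in cKO, so that cKO 1 was lowest for them while cKO 2 was lowest for the respiratory genes. Markers of activated or memory T cells summed to 487.5 and 415.7 CPM in WT and 611.1 and 612.1 CPM in cKO, and of 6 tested 2 were called higher (*Cd69* and *Tnfrsf4*) and 1 lower (*S100a6*, log2 fold change -1.24, SE 0.22). Of 5 naive T cell markers, *Ccr7* was called lower (log2 fold change -0.62) and *Il7r* higher (log2 fold change 1.04). Erythroid markers summed to between 9.865 CPM in cKO 1 and 311.8 CPM in WT 2, with overlap of the genotypes.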

How the data were processed

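The authors used HISAT2 2.1.0 to align 50-base reads to mm10 and counted reads per gene with HTSeq 0.11.1, per the labels. The authors deposited raw counts per gene symbol, which are not scaled. The annotation and strand setting are not given in the sources used here. Lines of the counter's own summary were kept out of library sizes and tests.

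Counts were tested in R 4.3.3 with edgeR 4.0.16 (quasi-likelihood F test, two-sided, genotype only, 4 libraries, TMM factors 0.9811 to 1.021), after filterByExpr (about 2 CPM in 2 libraries), with Benjamini-Hochberg adjustment over all 12403 genes. Genes were called at an adjusted p under 0.05. SE is the absolute log2 fold change over the square root of F, and intervals are at 95%. DESeq2 1.42.0 was an alternative. CPM of single genes and sums is the count scaled to 1000000 gene counts. At these depths 3 counts are 0.4576 to 0.6673 CPM, for counting error only, since reads were not collapsed by molecular identifiers. The procedure was tested on simulated data. Replicates differed by more than sampling noise (chi-square per degree of freedom 2.83 in WT and 6.68 in cKO).

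Positions, transcript lengths and sequences of transcripts are from GENCODE M21 (GRCm38, called mm10). Of the 148 genes, 141 matched by symbol, 6 through a RefSeq synonym and 1 (*Ndufs5-ps*) was placed by RefSeq alone. Shared words were counted on either strand in the annotated transcripts.

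Members and lists were chosen with earlier results of these data known, and nothing in them is independent support. The genes named are members called; mitochondrial mRNA and rRNA genes, and tRNA genes over 10 counts in each library; in each complex the 3 most abundant nuclear members and the 3 largest differences; the *Sdh*, X-linked, tissue-restricted and paralogous genes; and the largest 2 of each related list. A gene that this rule names is not reported here. The marker and pathway lists hold textbook genes. Python 3.11.15 and matplotlib 3.10.9 were used for figures. Protein sequences were not analysed here.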

Additional observations from a re-analysis of the deposited data

How the results depend on the processing

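The medians of nuclear members and of mitochondrial mRNA stayed below 0 under each alternative run for them. The ratios of summed levels, which were recomputed only on TMM-scaled libraries, with 1 library left out and without pseudogenes and assembly factors or genes with shared words, stayed below 1 for complexes I, III and IV; that of complex II ran from 0.914 to 1.01 with 1 library left out. Counts of calls moved. All genes called numbered 153 at an adjusted p under 0.01, 1367 with no low-count filter, 1165 with the replicate block and 180 to 1790 when 1 library was left out (180 without WT 2, 1491 without cKO 1, 1790 without cKO 2). Nuclear members called, 1 of 92, became 0 at an adjusted p under 0.01 (against 1.23% of all genes) and in DESeq2 (against 3.43%). In DESeq2, 2 of 92 had an unadjusted p under 0.05, where 3.43% of all genes passed even after adjustment. The number became 3 of 105 with no low-count filter (2.86%, against 5.72% of all genes: *Atp5g3*, *Atp5k* and *Ndufs5-ps*) and 3 of 92 with the replicate block (3.26%, against 9.39%: *Atp5g3*, *Ndufs5-ps* and *Ndufv3*). It also changed with 1 library left out. Mitochondrial genes called, 0 of 15, became 1 of 15 (*mt-Nd6*, 6.67%) with total counts in place of TMM (against 4.39% of all genes), with the replicate block (9.39%) and in DESeq2 (3.43%), 6 of 27 with no low-count filter (22.2% against 5.72%), and 0 to 7 with 1 library left out: 7 of 15 without cKO 1 (46.7% against 11.7%), and 3 of 17 without cKO 2 (17.6% against 13.8%), *mt-Nd6*, *mt-Rnr1* and *mt-Rnr2*. The cause was not tested. The sample titles do not say whether same-numbered libraries were prepared together. Deviations of same-numbered libraries from their genotype mean correlated at 0.0642 over 12403 genes, which cannot settle this with 2 libraries per genotype.

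Leaving out 1 library gave a median log2 fold change of -0.26 to -0.11 for nuclear members and -0.52 to -0.17 for mitochondrial mRNA, and 62 to 82 nuclear members below 0. The lone library of a genotype is then assumed to vary like the others. Of 559 values for 48 named genes, 506 kept direction and side of the threshold, and the 13 that reversed all came from leaving out a library. Their log2 fold changes then ran from -1.23 to 0.55 for *mt-Atp6*, -0.52 to 0.61 for *mt-Co3*, -0.77 to 0.53 for *mt-Tl1*, -0.14 to 0.10 for *Sdha*, -0.07 to 0.10 for *Uqcrc1*, -0.28 to 0.08 for *Uqcrh*, -0.33 to 0.12 for *Cox4i1*, -0.23 to 0.04 for *Ndufb11* and -0.17 to 0.10 for *Cox7a2*. Among the low members, tissue isoforms, most tRNA genes and 11 of 17 pseudogenes did not pass the filter on low counts and were not tested.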
